A study of Mus musculus with 40 samples.

Results

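Basal cells of the adult mouse mammary gland were compared between proestrus and metestrus. The comparison rests on 4 of the 40 RNA-seq libraries of the series, 2 basal libraries labelled proestrus and 2 labelled metestrus, chosen by the cell type and stage in their labels. All mice were untreated wildtype FVB/N females of 14 to 16 weeks, and each library holds the cells of a pool of 2 or 3 mice. The pools were placed by vaginal cytology and histology, with replicate 1 for the earlier and replicate 2 for the later part of a stage where these could be told, and otherwise by cell number. Basal cells were sorted from digested glands as cells without blood and endothelial surface markers, with medium EpCAM and high CD49f, and their polyadenylated RNA was sequenced on stranded libraries. The 2 estrus and 2 diestrus basal libraries entered the same model, where they add to the estimate of the spread between pools, and luminal, stromal and adipocyte libraries from the same pools served for comparison. The p values measure the spread between pools of mice.

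Proestrus is the phase of the estrous cycle in which estrogen climbs ahead of ovulation, and metestrus follows ovulation, when progesterone takes over. Basal cells form the outer, myoepithelial layer of the mammary epithelium, which contracts in response to oxytocin, and mammary stem cell activity has been ascribed to the same layer. Most adult basal cells lack estrogen and progesterone receptors and receive hormonal signals by way of luminal neighbours. Many of the genes described below are immediate early genes, which code for transcription factors such as FOS, EGR1, ATF3 and NR4A1 and are transcribed soon after a stimulus without new protein synthesis. Hormones, growth factors and mechanical or enzymatic handling of a tissue are all known to induce them.

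The basal libraries held 12568238 to 20876762 counts, and the lowest and the highest total were a metestrus and a proestrus library. All 7 basal markers (*Krt5*, *Krt14*, *Trp63*, *Acta2*, *Myh11*, *Oxtr* and *Itga6*) were present, with a summed level of 17327 and 17857 CPM (counts scaled to the depth of each library) in proestrus and 14309.5 and 13330.4 CPM in metestrus. The 10 luminal markers summed to 1818 and 2105 CPM in proestrus and to 1744 and 1708 CPM in metestrus. Endothelial markers, which the sort should remove, summed to 7.01 and 11.8 CPM in proestrus and to 11.7 and 32.7 CPM in metestrus. The 5 leukocyte markers summed to 7.48 and 8.17 CPM in proestrus and to 7.37 and 8.77 CPM in metestrus. Most of that was *Cd68*, with 6.23 and 6.69 CPM in proestrus and 5.91 and 7.08 CPM in metestrus. *Ptprc* and *Cd3e* had 0 counts in these 4 libraries. Metestrus replicate 1 stood apart in 2 genes, since *Gm42418* took 4.92% of its counts and *Lars2* 2.70%, against at most 1.31% and 0.26% in the other 3 libraries. In bulk RNA of this kind, fewer cells of a type and less RNA per cell cannot be told apart.

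Of 12122 genes tested with edgeR's quasi-likelihood test, 2 rose in proestrus relative to metestrus (0.0165% of the genes tested) and 1 fell (0.00825%) at a Benjamini-Hochberg adjusted p under 0.05. *Nr4a1* and *Atf3*, both immediate early transcription factors, were 4.64-fold and 2.78-fold higher in proestrus. *Arrdc3*, which codes for an adaptor that sends membrane receptors for degradation, was 3.85-fold lower in proestrus. Without adjustment, 1120 genes (9.24%) were higher and 1493 (12.3%) lower at p under 0.05. With only 2 libraries a stage, groups that do not overlap were common: both proestrus libraries lay above both metestrus libraries in 3713 genes (30.6%) and below them in 3465 genes (28.6%). DESeq2 called 99 genes higher (0.817%) and 330 lower (2.72%) from the same counts, whereas no gene passed once the fit was corrected for the GC content of the genes. The count of 3 was 135 without proestrus replicate 1, 3 without diestrus replicate 1, and 0 or 1 without any other single library.

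*Nr4a1* (ENSMUSG00000023034, chr15:101254269-101274795, plus strand, GRCm38) codes for NUR77, an orphan nuclear receptor that binds DNA without a known hormone. It had 761 and 626 CPM in the 2 proestrus libraries, against 117 and 181 CPM in the 2 metestrus libraries. The estrus libraries had 241 and 266 CPM and the diestrus libraries 244 and 254 CPM. Among the 8 adult basal libraries the proestrus pair was thus the highest and the metestrus pair the lowest. The log2 fold change of *Nr4a1* was 2.22 ± 0.22 (SE, adjusted p = 0.0218). It stayed between 1.93 and 2.58 in all 18 alternative settings, but the adjusted p missed 0.05 in 8 of them. Among these were the fit with GC content offsets (2.03, adjusted p = 0.0555) and the fits without metestrus replicate 1 (1.93, adjusted p = 0.0629), estrus replicate 1 (0.0716), estrus replicate 2 (0.0694) or diestrus replicate 2 (0.0514).

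The promoters of the genes that changed are shown because factors of the CREB and ATF family, which bind the cyclic AMP response element (CRE), are known regulators of *Nr4a1*, and ATF3 itself binds such sites. The windows hold the 250 bases before the RefSeq start (GRCm38.p6), each read on the strand of its gene, and the capitals mark the CRE core TGACG on either strand, which the full CRE TGACGTCA contains. The *Nr4a2* window, of a second NR4A gene, is added for comparison, and the windows of *Fosb*, *Fos* and *Jund* were also read.
Nr4a1: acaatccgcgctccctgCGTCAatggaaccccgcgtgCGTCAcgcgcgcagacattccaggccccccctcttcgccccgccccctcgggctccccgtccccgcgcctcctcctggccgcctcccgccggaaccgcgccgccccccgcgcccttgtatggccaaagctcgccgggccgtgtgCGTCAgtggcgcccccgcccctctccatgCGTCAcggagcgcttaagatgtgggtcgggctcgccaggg
Nr4a2: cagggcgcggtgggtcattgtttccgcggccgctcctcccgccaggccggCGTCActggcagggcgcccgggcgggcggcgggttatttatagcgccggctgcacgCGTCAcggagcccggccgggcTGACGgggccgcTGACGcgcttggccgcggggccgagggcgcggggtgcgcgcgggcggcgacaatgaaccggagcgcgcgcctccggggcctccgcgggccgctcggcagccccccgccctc
Atf3: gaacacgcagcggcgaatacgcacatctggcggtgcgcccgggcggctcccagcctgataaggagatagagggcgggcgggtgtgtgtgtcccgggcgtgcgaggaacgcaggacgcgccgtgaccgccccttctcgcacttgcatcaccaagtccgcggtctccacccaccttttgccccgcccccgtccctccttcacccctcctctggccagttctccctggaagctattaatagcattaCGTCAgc
Arrdc3: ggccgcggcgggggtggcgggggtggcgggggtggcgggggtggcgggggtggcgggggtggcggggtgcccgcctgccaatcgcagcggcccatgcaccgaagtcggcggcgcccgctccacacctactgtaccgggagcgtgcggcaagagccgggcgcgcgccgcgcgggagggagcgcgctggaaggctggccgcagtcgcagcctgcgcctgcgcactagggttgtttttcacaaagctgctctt
The windows lie at chr15:101266596-101266845 (plus strand) for *Nr4a1*, chr2:57124004-57124253 (minus strand) for *Nr4a2*, chr1:191183334-191183583 (minus strand) for *Atf3* and chr13:80883134-80883383 (plus strand) for *Arrdc3*. The *Nr4a1* window holds 4 CRE cores, the *Nr4a2* window 4, the *Atf3* window 1 and the *Arrdc3* window shown 0. The *Fosb*, *Fos* and *Jund* windows, not shown, hold 1, 2 and 0. *Arrdc3* has 3 RefSeq windows, of which the one at the annotated gene start is shown, and a CRE core was found among the others. At least 1 CRE core was found in 17.8% of all 32841 windows of this length and in 26.8% of the windows of tested genes. At least 4 were found in 0.137% of all windows, a share not counted for tested genes alone. All 3 NR4A genes had a CRE core, also *Nr4a3*, whose levels overlapped between the stages, and so did *Junb*. The *Nr4a1*, *Nr4a2*, *Atf3* and *Arrdc3* windows shown are rich in GC, at 74.4%, 80%, 65.2% and 76%. The RefSeq starts of *Nr4a1* and *Atf3* lie 12577 and 34706 bases from the outermost start of the gene in the annotation used for the counts, since both genes have several first exons. For *Jund* the distance is 1210 bases, and its window has 47.6% GC. A match describes the letters only, and no binding was measured.

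*Atf3* (ENSMUSG00000026628, chr1:191170296-191218039, minus strand) codes for a bZIP factor that responds to stress and growth signals and can repress other immediate early genes. It reached 827 and 900 CPM in proestrus, against 308 and 314 CPM in metestrus, with 526 and 484 CPM in estrus and 567 and 744 CPM in diestrus. The proestrus and metestrus pairs again marked the upper and lower ends of the 8 libraries. The log2 fold change was 1.47 ± 0.18 (SE, adjusted p = 0.0408). *Atf3* missed the threshold in 12 of the 18 settings, at log2 fold changes of 1.19 to 1.56 over all of them. Leaving out a single library ended the call for proestrus replicate 2 (adjusted p = 0.35), metestrus replicate 1 (0.224) and 2 (0.645), estrus replicate 1 (0.104) and 2 (0.121) and diestrus replicate 2 (0.0514).

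*Arrdc3* (ENSMUSG00000074794, chr13:80883384-80896042, plus strand) belongs to the alpha-arrestins, which recruit ubiquitin ligases to beta-adrenergic receptors and integrin beta 4. It had 40.1 and 31.5 CPM in proestrus, against 106 and 169 CPM in metestrus, and the estrus (61.5 and 65.5 CPM) and diestrus libraries (79.4 and 85.7 CPM) lay between. The log2 fold change was -1.94 ± 0.23 (SE, adjusted p = 0.0408). *Arrdc3* has a low GC content, 38.4% of its exon bases, compared with 49.4% for the median tested gene, and its log2 fold change was -1.48 with GC content offsets (adjusted p = 0.0653). Without metestrus replicate 2, the library with its highest value, it was -1.55 (adjusted p = 0.278), and without metestrus replicate 1 it was -2.24 (adjusted p = 0.0178). The call also ended without proestrus replicate 2 (adjusted p = 0.35), estrus replicate 1 (0.104) or 2 (0.121) and diestrus replicate 1 (0.111) or 2 (0.0841).

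**Figure D1:**
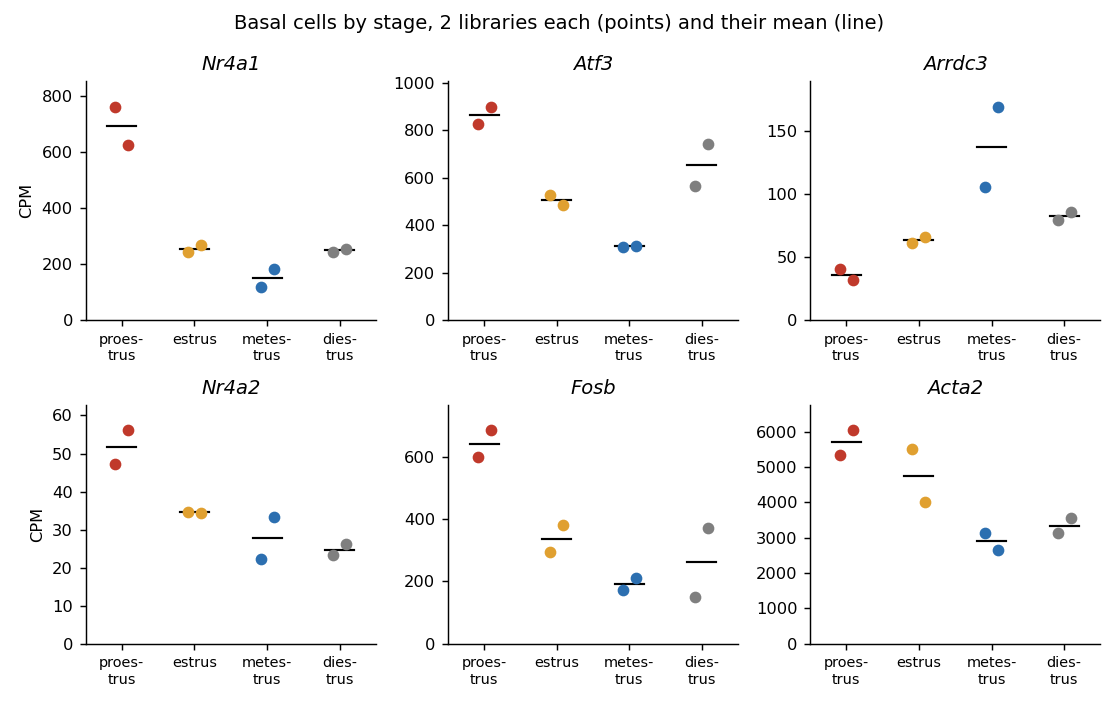
Level of *Nr4a1*, *Atf3*, *Arrdc3*, *Nr4a2*, *Fosb* and *Acta2* in the 8 adult basal libraries, in CPM on a linear axis, against estrous stage. Points are libraries (2 pools of mice a stage) and lines their mean. The proestrus libraries were highest and the metestrus libraries lowest of the 8 for *Nr4a1* and *Atf3*, and the reverse for *Arrdc3*.

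Of the 3 NR4A receptors, 2 were higher in proestrus at p under 0.05 without adjustment (9.24% of all genes were). The called gene *Nr4a1* is 1 of the 2, and the list was chosen with earlier results known. The count of 2 is therefore no separate support for that call. The median log2 fold change of the 3 was 0.89. *Nr4a2*, or NURR1, had 47.2 and 56.1 CPM in proestrus and 22.2 and 33.4 CPM in metestrus, a log2 fold change of 0.89 ± 0.21 (adjusted p = 0.142). *Nr4a3*, or NOR1, overlapped between the stages, with 168 and 127 CPM in proestrus and 86.0 and 162 CPM in metestrus. Its log2 fold change of 0.25 became -0.13 without metestrus replicate 1. The family was thus represented among the called genes by *Nr4a1* only.

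AP-1 is a dimer of FOS and JUN proteins. Of its 7 subunits, 4 had proestrus libraries above both metestrus libraries (30.6% of all genes did), or 3 with GC content offsets. At p under 0.05, 3 were higher (9.24% of all genes were), but none passed after adjustment. *Fosb* had 598 and 684 CPM in proestrus and 171 and 210 CPM in metestrus (log2 fold change 1.75 ± 0.35, adjusted p = 0.142), a difference close in size to that of *Atf3* with a wider error. *Fos* had 543 and 625 CPM in proestrus and 231 and 232 CPM in metestrus (1.33 ± 0.37, adjusted p = 0.145), but a diestrus library of 475 CPM lay close to the proestrus pair. *Jund*, the JUN subunit least dependent on stimulation, had 156 and 153 CPM in proestrus and 81.9 and 79.8 CPM in metestrus (0.93 ± 0.16, adjusted p = 0.142). *Junb* was at 613 and 599 CPM in proestrus and 573 and 431 CPM in metestrus. *Jun*, *Fosl1* and *Fosl2* overlapped between the stages, with log2 fold changes of 0.10, 0.16 and 0.06, and the sign of all 3 turned with GC content offsets.

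Other bZIP factors were divided. Among 16 ATF, CREB and C/EBP genes, *Atf3* included, 3 were higher and 4 lower in proestrus at p under 0.05. Of all genes, 9.24% and 12.3% were. The median log2 fold change of the 16 was 0.15 (0.05 with GC content offsets, 0.06 without metestrus replicate 2). *Atf1*, *Atf2* and *Atf6* were among the lower ones, but with GC content offsets none of the 16 was lower at p under 0.05. *Atf2* had 59.6 and 48.2 CPM in proestrus and 68.4 and 82.9 CPM in metestrus, and its log2 fold change of -0.49 became 0.02 with GC content offsets. Among 16 EGR, KLF and other immediate early regulators, 4 were higher and 2 lower at p under 0.05 (9.24% and 12.3% of all genes). With GC content offsets 2 were higher and 2 lower (7.89% and 9.4% of all genes). The median log2 fold change of these 16 was 0.14, and -0.03 with the offsets. *Egr1*, a zinc finger factor, had 512 and 585 CPM in proestrus and 307 and 291 CPM in metestrus (0.88 ± 0.25, adjusted p = 0.147). *Klf2*, at 5.09 and 5.21 CPM in proestrus and 1.63 and 2.25 CPM in metestrus, and *Ier2*, at 184 and 185 CPM in proestrus and 145 and 118 CPM in metestrus, also had p under 0.05. *Klf10*, an early target of TGF-beta, lay on the other side with 142 and 157 CPM in proestrus and 275 and 214 CPM in metestrus.

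Feedback inhibitors of MAP kinase signalling and mRNA decay factors are induced with the immediate early genes. Of 17, 2 were higher and 3 lower in proestrus at p under 0.05. Of all genes, 9.24% and 12.3% were, so that the counts lay near those shares. *Spred1* and *Spry2*, both inhibitors of RAS-MAP kinase signalling, had 161 and 127 CPM and 75.6 and 75.6 CPM in proestrus, against 247 and 292 CPM and 112 and 106 CPM in metestrus. *Zfp36l2*, which promotes decay of AU-rich mRNA, had 381 and 397 CPM in proestrus and 673 and 674 CPM in metestrus. *Btg2*, an antiproliferative gene, had 133 and 124 CPM in proestrus and 79.0 and 71.1 CPM in metestrus. All 4 had adjusted p over 0.14. Of 14 genes of the integrated stress and unfolded protein responses, 3 were higher at p under 0.05 (9.24% of all genes) and none lower. They were *Chac1*, *Herpud1* and *Asns*, and the median log2 fold change of the list was 0.32. With GC content offsets 1 of the 14 had p under 0.05, and the median was 0.17. It was 0.02 with GC content and length offsets, 0.52 without proestrus replicate 1 and 0.12 without proestrus replicate 2.

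Of 12 heat shock genes, 4 were lower in proestrus at p under 0.05 (12.3% of all genes were) and none higher. These were *Hsp90aa1*, *Hspd1*, *Hsph1* and *Dnaja1*, which code for cytosolic and mitochondrial chaperones. *Hsp90aa1* had 729 and 564 CPM in proestrus and 1026 and 1020 CPM in metestrus (log2 fold change -0.66 ± 0.25, adjusted p = 0.185). The median of the list was -0.13 and took either sign, at -0.50 without proestrus replicate 2, -0.30 without metestrus replicate 2, 0.03 without metestrus replicate 1 and 0.10 without proestrus replicate 1. The near-identical copies *Hspa1a* and *Hspa1b* belong to the list, and reads may not be told apart between them. Digestion and sorting of a tissue are known to induce both heat shock and immediate early genes, and their part in these differences was not tested.

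Beside *Arrdc3*, 6 of the other 7 arrestin-domain genes were expressed enough to be tested. *Txnip*, a thioredoxin inhibitor and alpha-arrestin that limits glucose uptake, had 148 and 193 CPM in proestrus and 83.8 and 78.5 CPM in metestrus (1.07 ± 0.39, adjusted p = 0.176), with 91.5 and 177 CPM in estrus and 216 and 89.7 CPM in diestrus, so that 1 diestrus library was above the proestrus pair. *Arrb1*, a beta-arrestin that desensitises G protein-coupled receptors, had 311 and 345 CPM in proestrus and 188 and 238 CPM in metestrus (0.62 ± 0.19, adjusted p = 0.155). *Arrb2* had 5.77 and 7.29 CPM in proestrus and 5.23 and 3.26 CPM in metestrus. *Arrdc1*, *Arrdc2* and *Arrdc4* had log2 fold changes of 0.22, 0.51 and -0.24 and p over 0.05. *Arrdc3* was therefore alone in its family in passing the test, and the only member lower in proestrus at p under 0.05.

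**Figure D2:**
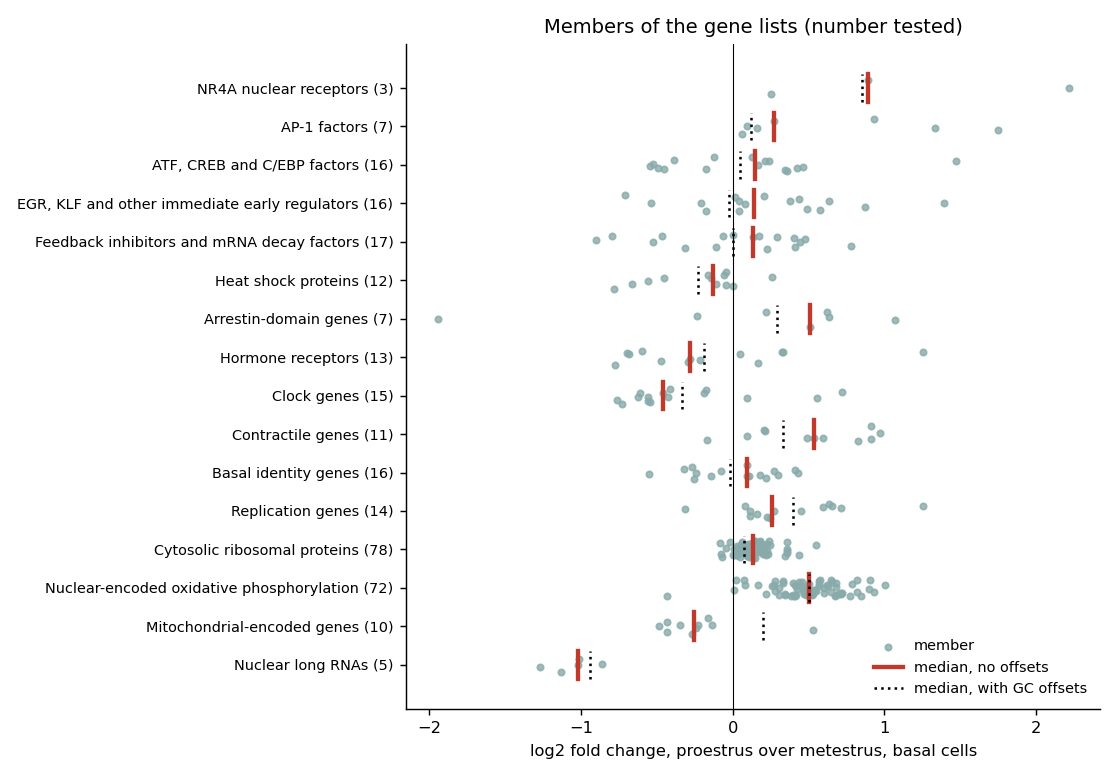
Log2 fold change, proestrus over metestrus, of the tested members of 16 gene lists in basal cells (points). Bars mark the list median, and dotted marks the median with GC content offsets. The median of the nuclear-encoded respiratory chain genes was 0.50 with and without the offsets, that of the contractile genes 0.54 and 0.33 with the offsets, and that of the clock genes -0.46 and -0.33 with the offsets.

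Genes of the contractile apparatus of myoepithelium lay toward proestrus. Of 11, 6 were higher at p under 0.05 (9.24% of all genes were) and none was lower. Proestrus libraries lay above both metestrus libraries in 9 (30.6% of all genes). The median log2 fold change was 0.54, and 1 member had a negative value. With GC content offsets the median was 0.33 and 2 genes were higher at p under 0.05 (7.89% of all genes). Proestrus libraries then lay above both metestrus libraries in 6 (3405 of 12122 genes). In stromal cells of the same pools 9 of the 11 were positive, with a median of 0.28. In luminal cells 4 of 8 tested were positive (median -0.01), and in adipocytes 1 of 11 (median -0.39). *Acta2*, smooth muscle actin, had 5350.2 and 6035 CPM in proestrus and 3143 and 2661 CPM in metestrus (0.97 ± 0.21, adjusted p = 0.142). *Actg2*, *Myl9* and *Tagln* had log2 fold changes of 0.91, 0.91 and 0.60. The summed level of the 11 genes was 14667 and 15482 CPM in proestrus, against 10731 and 9427 CPM in metestrus. The estrus values of *Acta2*, 5497 and 4011 CPM, reached into the proestrus range. *Acta2* passed the threshold in 2 of the 18 alternative settings.

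*Oxtr*, the oxytocin receptor through which this apparatus is triggered, had 188 and 259 CPM in proestrus and 86.3 and 101 CPM in metestrus. Its log2 fold change was 1.25 ± 0.33 (adjusted p = 0.145), and the proestrus pair was the highest of the 8 libraries, ahead of estrus at 46.2 and 108 CPM. Of all genes, 9.24% were higher and 12.3% lower at p under 0.05. Of the 13 hormone receptor genes tested, *Oxtr* was the only one higher at that threshold and 2 were lower, near those shares. The lower ones were the glucocorticoid receptor gene *Nr3c1*, with 108 and 76.2 CPM in proestrus and 130 and 148 CPM in metestrus, and the mineralocorticoid receptor gene *Nr3c2*. Of 10 genes that glucocorticoids or progestins induce, 1 was higher (*Sgk1*) and 2 were lower (*Klf9* and *Errfi1*) at p under 0.05. *Sgk1*, a kinase that regulates ion transport, had 899 and 749 CPM in proestrus and 461 and 480 CPM in metestrus.

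Of 16 identity genes of the basal layer, 1 was higher and 1 lower at p under 0.05, *Jag2* and *Snai2*. Of all genes, 9.24% and 12.3% were. The median log2 fold change of the 16 was 0.10 (-0.02 with GC content offsets). It was 0.17 without proestrus replicate 1, 0.00053 without proestrus replicate 2 and 0.04 without metestrus replicate 2. *Krt5* had 1932 and 2187 CPM in proestrus and 1602 and 1447 CPM in metestrus (0.43 ± 0.20, adjusted p = 0.242). Of 13 basement membrane and matrix genes, only *Nid1*, which links laminin and collagen IV networks, had p under 0.05, with 31.3 and 28.7 CPM in proestrus and 39.9 and 63.8 CPM in metestrus. Mitosis genes were low at both stages. *Mki67*, expressed in cycling cells, had 0.779 and 0.646 CPM in proestrus and 2.91 and 1.503 CPM in metestrus, whereas an estrus library had 28.6 CPM. Of 14 replication genes, *Mcm2* alone had p under 0.05, with 5.92 and 9.55 CPM in proestrus and 3.09 and 3.38 CPM in metestrus.

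Nuclear-encoded genes of the respiratory chain and ATP synthase, which together perform oxidative phosphorylation, were shifted toward proestrus as a group. Of 72 tested, 71 had a positive log2 fold change (6068 of 12122 genes did). Proestrus libraries lay above both metestrus libraries in 64 (30.6% of all genes). At p under 0.05, 36 were higher (9.24% of all genes were) and none lower. None passed after adjustment by edgeR, and 8 did by DESeq2 (0.817% of all genes did, toward proestrus). The median log2 fold change was 0.50, unchanged to 2 decimals by GC content offsets, and lay between 0.35 and 0.70 over the alternative settings. *Atp5s* was the 1 gene with a negative value.

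The shift ran through complexes I, III and IV and ATP synthase, the 4 groups in the list. Genes of complex II were not in the list. Complex I (NADH dehydrogenase) had 21 of 36 genes at p under 0.05 and a median of 0.59, complex III 3 of 8 and 0.37, complex IV 4 of 11 and 0.46, and ATP synthase 8 of 17 and 0.48. *Ndufs7*, an iron-sulfur subunit of complex I, had 23.3 and 22.97 CPM in proestrus and 14.1 and 12.8 CPM in metestrus (0.79 ± 0.17, adjusted p = 0.142). *Ndufb9*, an accessory subunit, had 51.3 and 50.7 CPM in proestrus and 31.2 and 25.7 CPM in metestrus. The summed level of the 72 genes was 6606 and 6546 CPM in proestrus, against 5346 and 4516 CPM in metestrus. The estrus libraries had 8743 and 6004 CPM and the diestrus libraries 6524 and 7037 CPM, so that the 2 metestrus libraries were the lowest of the 8 and the proestrus libraries lay among the others.

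Of 10 subunits encoded in the mitochondrial genome, none had p under 0.05. Proestrus libraries lay above both metestrus libraries in 1 of them and below in 3, against 30.6% and 28.6% of all genes. The median was -0.26, which turned to 0.20 with GC content offsets and was -0.53 without proestrus replicate 1 and -0.06 without proestrus replicate 2. *mt-Cytb*, of complex III, had 3491 and 3303 CPM in proestrus and 3875 and 4304 CPM in metestrus. Cytosolic ribosomal protein genes, a further class of short and abundant mRNAs, had no member of 78 at p under 0.05, but 73 had a positive log2 fold change. Their median was 0.13, which became 0.44 without metestrus replicate 1 and -0.10 without metestrus replicate 2. In other cells of the same pools, the respiratory chain genes differed in different ways. Of the 72, 19 were positive in luminal cells (median -0.06), 68 in stromal cells (median 0.50) and 64 in adipocytes (median 0.12).

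**Figure D3:**
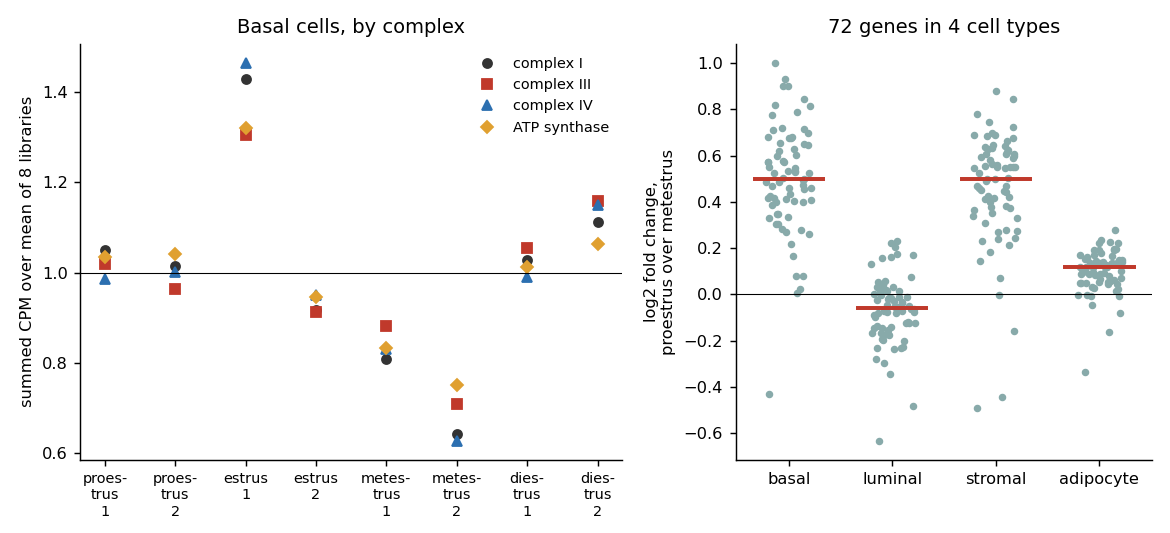
Left, summed CPM of the nuclear-encoded genes of complexes I, III and IV and of ATP synthase in the 8 adult basal libraries. Each sum is divided by the mean of the 8 (points are libraries). Right, log2 fold changes, proestrus over metestrus, of the 72 genes in each of 4 cell types with their medians, which were 0.50 in basal cells and -0.06 in luminal cells.

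Clock genes lay on the other side. Of 15 tested, 6 were lower in proestrus at p under 0.05 (12.3% of all genes were) and none higher. Proestrus libraries lay below both metestrus libraries in 11 (28.6% of all genes). The median was -0.46, or -0.30 without proestrus replicate 1. The shift was not confined to basal cells. In stromal cells of the same pools 11 of the 15 were lower at p under 0.05 (909 of 13068 genes), with a median of -0.64. The medians were 0.07 in luminal cells and -0.03 in adipocytes. *Cry1*, a repressor of the clock, had 64.8 and 77.5 CPM in proestrus and 93.4 and 116 CPM in metestrus (-0.56 ± 0.17, adjusted p = 0.152). *Nr1d2*, or REV-ERB beta, had 137 and 97.5 CPM in proestrus and 177 and 185 CPM in metestrus. *Bhlhe41* and *Rora* had log2 fold changes of -0.73 and -0.76.

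Of 5 long RNAs that stay in the nucleus, 3 were lower in proestrus at p under 0.05 (12.3% of all genes). The median was -1.02. The median was -1.57 without proestrus replicate 1, -0.62 without proestrus replicate 2, -0.65 without metestrus replicate 2 and -0.58 with GC content and length offsets, with all 5 negative each time. *Malat1* had 459 and 237 CPM in proestrus and 589 and 822 CPM in metestrus (-1.02 ± 0.34, adjusted p = 0.164). *Neat1*, the scaffold of paraspeckles, had 40.4 and 32.9 CPM in proestrus and 58.1 and 89.6 CPM in metestrus. In stromal cells of the same pools all 5 were also negative (median -0.69, beside 0.50 for the respiratory chain genes). All 4 tested were negative in luminal cells (-0.21, beside -0.06), and all 5 positive in adipocytes (0.25, beside 0.12). These RNAs are used as a sign of the share of nuclear RNA in a library, and in basal cells they moved against the respiratory chain genes. The part of RNA fraction or quality in that difference was not tested.

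Inflammatory, metabolic and Wnt genes are given beside the shares of all genes, 9.24% higher and 12.3% lower at p under 0.05. Of 15 NF-kB and cytokine genes, *Cxcl1* and *Relb* were higher at p under 0.05 and none was lower. Of 16 cholesterol synthesis genes, *Lss* alone had p under 0.05, and of 16 Wnt pathway genes, *Lrp6* alone, a Wnt co-receptor with 247 and 188 CPM in proestrus and 297 and 389 CPM in metestrus. Of 13 FOXO-responsive genes, 1 was higher (*Pik3ip1*) and 2 were lower (*Pdk4* and *Bcl6*) at p under 0.05.

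Beyond these lists, the genes with the smallest unadjusted p are given with their values, all at an adjusted p of 0.142. Toward proestrus these included *Pygb* (glycogen phosphorylase), with 65.5 and 69.1 CPM in proestrus and 37.7 and 36.0 CPM in metestrus. *Pgm1*, a phosphoglucomutase, had 39.3 and 30.95 CPM in proestrus and 17.9 and 17.9 CPM in metestrus. *Hexim1*, an inhibitor of the elongation factor P-TEFb, had 95.6 and 114 CPM in proestrus and 57.7 and 65.4 CPM in metestrus. *Cables1*, *Nxn* and *Vwa1*, the last a basement membrane component, had log2 fold changes of 1.08, 0.88 and 0.93. Toward metestrus, *Cpeb2* and *Cpeb4*, which regulate translation through cytoplasmic polyadenylation elements, had 18.8 and 19.9 CPM and 44.7 and 38.6 CPM in proestrus, against 33.5 and 37.5 CPM and 76.8 and 80.2 CPM in metestrus. *Med13*, of the Mediator kinase module, and *Cdk13*, a kinase of RNA polymerase II, had log2 fold changes of -0.97 and -0.85. *Phldb2*, which anchors microtubules at the cell cortex, had 20.05 and 18.3 CPM in proestrus and 39.1 and 40.0 CPM in metestrus (-1.04 ± 0.16). *Usp31*, *Dennd4a* and *Kif2a* had log2 fold changes of -1.19, -1.04 and -0.86. *Ackr1*, a chemokine receptor of venular endothelium, had 1.247 and 1.57 CPM in proestrus and 3.60 and 8.52 CPM in metestrus, and the summed endothelial markers given above were highest in the same metestrus library.

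The direction of the differences went with the base composition of the genes. Across 12070 genes, the Spearman correlation of the log2 fold change with exon GC content was 0.43 in basal cells, given as a description because genes of a library share its preparation. It was 0.25 in luminal cells, -0.003 in stromal cells and 0.009 in adipocytes. The genes higher at p under 0.05 had a median GC content of 53.7%, and the lower ones 44.2%. In the decile of genes with the lowest GC content (31.9% to 41.4%), the median log2 fold change was -0.41, and 30.2% were lower but 0.58% higher at p under 0.05. In the decile with the highest (57.4% to 72.8%), it was 0.18, and 16.0% were higher but 1.99% lower. The DESeq2 calls had the same split, with a median GC content of 54.6% for the higher and 44.5% for the lower genes.

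The libraries differed in this trend. Each library's deviation from the mean of the 8 correlated with GC content at 0.04 and 0.56 in proestrus replicates 1 and 2, and at -0.23 and -0.34 in metestrus replicates 1 and 2. An estrus library reached 0.41, so that such deviations were not confined to the stages compared. Exon length went with the trend too. The log2 fold change correlated with it at -0.42, and GC content and length were themselves correlated at -0.35 across genes. After an offset for GC content in each library, the correlation with GC content was -0.02 and that with length -0.30. The genes higher and lower at p under 0.05 then had median GC contents of 48.1% and 49.7%. The offset is fitted to each library's own trend with GC content. The loss of that correlation and the closer medians therefore follow from the correction itself. Whether base composition stands for a step of library preparation or for the biology of the stages cannot be told apart with these libraries.

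**Figure D4:**
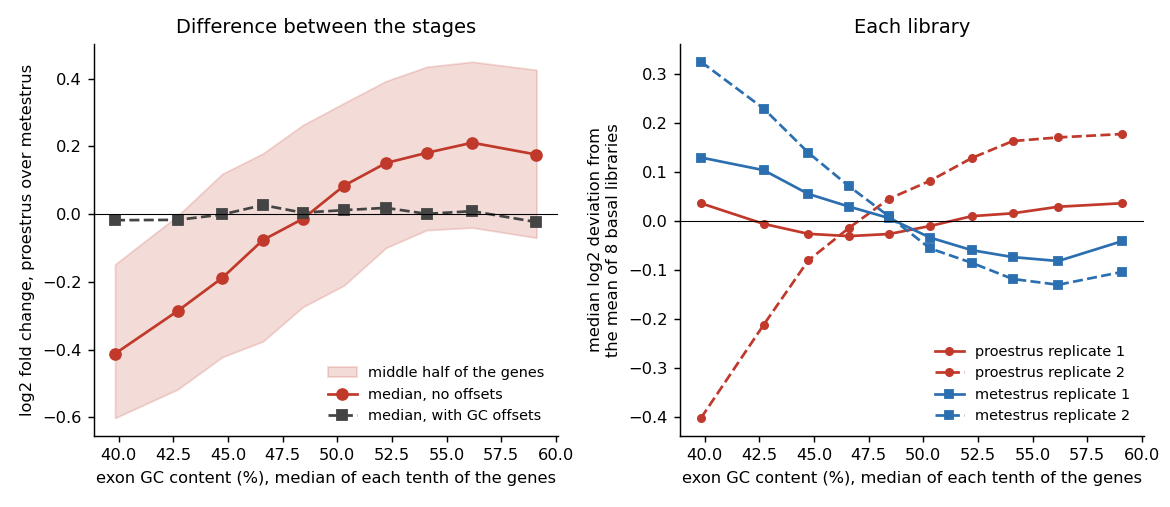
Left, median log2 fold change, proestrus over metestrus, with the interquartile range of the genes, in deciles of genes by exon GC content, before and after GC content offsets. Right, median log2 deviation from the mean of the 8 basal libraries in the same deciles for each proestrus and metestrus library. The uncorrected median was -0.41 in the lowest decile and 0.18 in the highest, and proestrus replicate 2 and the metestrus libraries had opposite slopes.

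With GC content offsets, 956 genes (7.89%) were higher and 1140 (9.4%) lower at p under 0.05, and none passed after adjustment. *Nr4a1* and *Atf3* had log2 fold changes of 2.03 and 1.34, close to their uncorrected values. With offsets for GC content and length together, *Nr4a1* (2.00, adjusted p = 0.0479) and *Arrdc3* (-1.51, adjusted p = 0.0480) passed and *Atf3* did not (1.19, adjusted p = 0.0558). The respiratory chain and contractile groups had medians of 0.50 and 0.33 with GC content offsets, and the respiratory chain median was 0.35 with both offsets. The *Nr4a1*, *Atf3* and *Arrdc3* exons have 55.6%, 52.2% and 38.4% GC.

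The 3 called genes were set beside the other cell types of the same pools. *Nr4a1* had 207 and 209 CPM in proestrus luminal cells and 183 and 152 CPM in metestrus luminal cells, a log2 fold change of 0.31 (adjusted p = 0.69). In stromal cells it was more abundant than in basal cells, with 1159 and 1075 CPM in proestrus and 1244 and 1601 CPM in metestrus. *Atf3* had log2 fold changes of 0.20 in luminal, -0.02 in stromal cells and -0.25 in adipocytes. *Arrdc3* had 223 and 209 CPM in proestrus luminal cells and 334 and 316 CPM in metestrus luminal cells (-0.59, adjusted p = 0.112), and log2 fold changes of -0.25 in stromal cells and 0.06 in adipocytes. The difference between basal and luminal cells, tested as an interaction over 16 libraries, was 1.98 for *Nr4a1*, 1.34 for *Atf3* and -1.28 for *Arrdc3* (adjusted p = 0.127, 0.128 and 0.128), so that none was shown to differ between the 2 cell types. Of 13193 genes, 2 passed that test (0.0152%), and 2002 (15.2%) had an unadjusted p under 0.05.

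**Figure D5:**
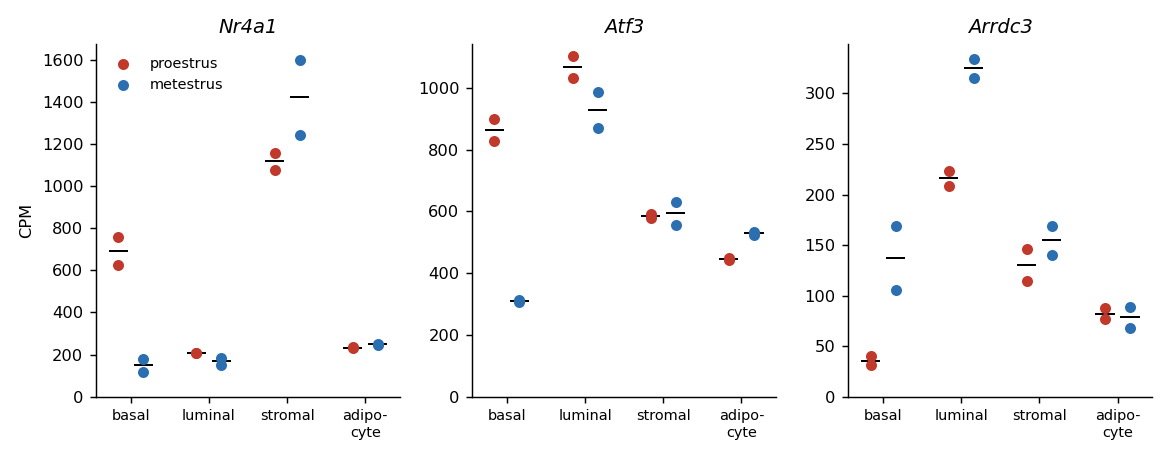
CPM of *Nr4a1*, *Atf3* and *Arrdc3* in proestrus and metestrus libraries of basal, luminal, stromal and adipocyte populations (points are libraries). In basal cells *Nr4a1* lay between 626 and 761 CPM in proestrus, against 117 and 181 CPM in metestrus, and in luminal cells it was at 207 and 209 CPM in proestrus, against 183 and 152 CPM in metestrus.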

How the data were processed

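The deposited adult table holds raw read counts per gene, which the authors made with TopHat2 2.1, Bowtie 1.1.0 and HTSeq on GRCm38. The deposited normalized tables and the pubertal counts were not used. Libraries were assigned by their labels, and no library was left out. The members and gene lists were chosen with earlier results of these data known.

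The 8 adult basal libraries were fitted with 4 stage means in edgeR 4.0.16 (R 4.3.3, quasi-likelihood F-test with legacy=TRUE, TMM factors), for genes above 1 CPM in at least 2 libraries, and proestrus was compared with metestrus at a Benjamini-Hochberg adjusted p of 0.05. CPM are on TMM-scaled library sizes, and levels in CPM are not per length. Depth was 12568238 to 20876762 counts a library, and the 2 pools a stage limit the precision more than counting does. Exon GC content and length came from GENCODE M21, and GC content offsets were a spline with 5 degrees of freedom in each library. The interaction of cell type and stage was fitted over 16 basal and luminal libraries. Alternatives were the newer quasi-likelihood method, all genes kept whatever their counts, DESeq2 1.42.0, RLE scaling, other sets of libraries, a replicate block, offsets for GC content and length, and each library left out. The fits were tested on simulated data. Without a GC trend, the main fit recovered 53% of log2 changes of 1 and 92% of log2 changes of 2, with 3 false calls. With a GC trend added to the metestrus libraries it made 161 false calls, and 6 with GC content offsets. The correlation with GC content was 0.62 in that simulation, stronger than the 0.43 of the data. Promoters are from RefSeq.

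Genes were named by a rule: every gene at an adjusted p under 0.05, the 10 genes per direction with the smallest p among those whose stages did not overlap and whose mean log2 CPM reached 2 (predicted genes left out), up to 4 members of each list with the smallest p, and all NR4A, AP-1 and arrestin-domain genes. *Atp5s*, *Gm42418* and *Lars2* were chosen after seeing their values.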

Additional observations from a re-analysis of the deposited data

Results flagged for a closer look

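The difference between proestrus and metestrus was not the same in basal and luminal cells for 2 genes, by the interaction of cell type and stage. *Pappa*, whose product cleaves binding proteins of insulin-like growth factors, had a basal minus luminal difference of -4.93 ± 0.53 on the log2 scale (SE, edgeR adjusted p = 0.00441). In basal cells it had 56.1 and 43.4 CPM in proestrus and 62.1 and 81.0 CPM in metestrus, and in luminal cells 23.3 and 21.8 CPM in proestrus and 1.31 and 0.730 CPM in metestrus. *Olfml3*, a secreted matrix protein, had a difference of -4.23 ± 0.56 (adjusted p = 0.0239), with 3.53 and 3.51 CPM in proestrus and 5.49 and 4.13 CPM in metestrus basal cells, and 17.3 and 7.28 CPM in proestrus and 1.07 and 0.626 CPM in metestrus luminal cells. For both genes the luminal libraries carried most of the difference, and neither was called in basal cells alone. *Pappa* lost its call in 2 of 13 alternative settings, without basal proestrus replicate 2 (adjusted p = 0.0626) or luminal metestrus replicate 2 (0.0776). *Olfml3* lost it in 6 of 12, without basal proestrus replicate 1 (0.0527) or 2 (0.154), basal metestrus replicate 1 (0.111) or 2 (0.0527), and luminal metestrus replicate 1 (0.107) or 2 (0.134).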

How the results depend on the processing

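The 3 calls in basal cells (2 higher in proestrus, 1 lower) were the same under the newer quasi-likelihood method. There were 429 (99 higher, 330 lower) with DESeq2, 837 (291 and 546) without a filter on low counts, 120 (107 and 13) when all 32 adult libraries were fitted jointly, 1 (1 and 0) with RLE size factors, 2 (1 and 1) with GC content and length offsets, and 0 (0 and 0) with GC content offsets or with the proestrus and metestrus libraries alone. At an unadjusted p under 0.05, the last pair of fits gave 2096 and 2896 genes. Leaving out 1 library gave 0 to 135 calls (0 to 7 higher, 0 to 128 lower). The lower share of calls was 76.9% with DESeq2 and 10.8% in the joint fit, and the cause was not tested.

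Replicate numbers do not pair pools across stages, and same-numbered proestrus and metestrus libraries deviated with a correlation of -0.21. A replicate block gave 0 calls (0 higher, 0 lower), alone or with GC content offsets, and 2393 and 1913 genes at an unadjusted p under 0.05. The interaction with luminal cells gave 2 genes with RLE size factors or GC content offsets, 5 with a block of shared pools, 314 without a filter, 138 with DESeq2 and 0 to 2 without single libraries.

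The median GC content of the higher minus the lower called genes was 15.5 percentage points, which sets 2 genes against 1. It was 9.49 over genes at an unadjusted p under 0.05 and 10.1 over DESeq2 calls. *Nr4a1*, *Atf3* and *Arrdc3* kept their sign in all 18 settings. With GC content offsets the log2 fold change turned to 0.0188 for *Atf2* (0.0141 with the block, 0.0462 with length offsets), 0.22 for *mt-Atp8* (0.22 with the block), 0.17 for *mt-Cytb* (0.16), 0.12 for *mt-Nd6* (0.13), -0.0614 for *Fosl1* (-0.0692 with the block, -0.18 with length offsets), -0.11 for *Jun* (-0.11 and -0.17) and -0.0738 for *Fosl2* (-0.0742), and with length offsets to -0.0873 for *Arrdc1*. Without single libraries it ran from -0.47 to 2.04 for *Aurkb*, -0.48 to 0.93 for *Axin2*, -0.23 to 1.11 for *Aurka*, -0.13 to 0.80 for *Nr4a3*, -0.23 to 0.47 for *Fosl1*, -0.20 to 0.35 for *Jun* and -0.0802 to 0.19 for *Fosl2*. Over all settings, other named genes gained a call 99 times and *Nr4a1*, *Atf3* and *Arrdc3* lost theirs 31 times.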
